A study of Mus musculus with 32 samples.

Results

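Ribosome footprints on 9 genes of the tripartite motif (TRIM) family were followed in neural stem cells (NSCs) exposed to IFN-β. The members are Trim14, Trim21, Trim25, Trim26, Trim30a, Trim30d, Trim34a, Trim12c and Trim56, chosen by name as TRIM genes known to respond to interferon. Earlier results of these data were known when they were chosen. They make up 9 of the 71 TRIM family genes that were found in the ribosome footprint tables, which hold 23035 genes in all. NSCs came from the ventricular-subventricular zone (vSVZ) of male C57BL/6 mice aged 8 to 12 weeks and were grown ex vivo. All cultures are labelled wild type. The 4 groups were vehicle for 2 h, IFN-β for 2 h, vehicle for 14 h and IFN-β for 14 h, each with 4 cultures. All cultures, vehicle ones included, received cycloheximide shortly before lysis to hold ribosomes on the mRNA. Every culture gave 1 library of ribosome footprints, the stretches of mRNA protected by ribosomes, and 1 library of total RNA, so 32 libraries were analysed. The cultures carry the numbers 2, 3, 5 and 6 at 2 h and 1 to 4 at 14 h, and values for 4 cultures are given in that order throughout. The labels do not say how many mice went into a culture, and the p-values measure the spread between cultures. The libraries of each time stand in tables of their own, and the labels do not say whether an equal number marks a shared preparation, so time and any difference between these sets of cultures cannot be told apart.

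Most TRIM proteins begin with a RING domain, by which they act as ubiquitin ligases, followed by B-box and coiled-coil segments, and many end in a PRY-SPRY domain that recognises the target. Type I interferon acts through its cell-surface receptor and Janus kinases on transcription factors that bind the interferon-stimulated response element (ISRE) in the promoters of interferon-stimulated genes (ISGs). Several TRIM proteins are ISGs themselves and act on the sensors and adaptors that start an interferon response, while others bind viral proteins directly.

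Footprint libraries held between 4956144 and 9361609 counts at 2 h and between 2956297 and 10505108 at 14 h. Total RNA libraries held 3992402 to 7877753 at 2 h and 1370008 to 2737111 at 14 h. Intervals given for counts cover counting error only. Levels below are CPM, the share of a gene in the counts of a library scaled with TMM and multiplied by 1000000, and calls are those of edgeR's quasi-likelihood test at an adjusted p under 0.05. Only the summed levels of cell markers were taken on total counts without TMM. The label of the cells was checked on 8 NSC markers, whose summed footprint level in treated and vehicle cultures was 14600 to 17700 and 14700 to 17400 CPM at 2 h, and 10800 to 12300 and 11700 to 13400 at 14 h. Of 8 microglial markers, 6 had at most 5 footprints in every library, and Aif1, Cx3cr1 and Tyrobp were at 0 in every library. The summed level of the microglial markers in treated and vehicle cultures was 15.5 to 37.4 and 12.0 to 34.7 CPM at 2 h, and 39.8 to 45.9 and 36.9 to 42.1 at 14 h. Gfap, on the NSC list, varied between libraries, with 347 to 2297 footprints in treated and 5 to 816 in vehicle cultures at 2 h and at most 9 at 14 h. Summed endothelial markers at 2 h reached 7.06 to 24.0 CPM in treated and 3.94 to 9.90 CPM in vehicle cultures. The sums for 14 h, 9.81 to 12.8 CPM treated and 7.90 to 8.87 CPM vehicle, did not overlap. Of this list, Pecam1, Cldn5 and Cdh5 had no more than 3 footprints in any library. Kdr, with 16 to 148 footprints per library, and Tek, with 1 to 50, thus made up most of these sums. Neuronal and oligodendrocyte markers each summed to at most 20.4 CPM in any footprint library. The part of these markers in the results below was not tested. At 14 h P2ry12 rose (log2 fold change 1.62, adjusted p = 5.84e-07) and Itgam fell by 0.75 on the log2 scale (adjusted p = 1.20e-05). In such bulk libraries a change per cell and a change in the mix of cells cannot be told apart.

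The members lie on 5 chromosomes of the mm10 assembly, and the short promoter stretches printed here show what several members share in sequence. Trim30a, Trim30d, Trim34a and Trim12c lie within 263 kb on chromosome 7, from 104244457 to 104507849. Trim21 lies on the same chromosome at chr7:102557921-102565486, Trim14 at chr4:46493781-46536141, Trim56 at chr5:137105644-137116209, Trim25 at chr11:88999376-89020293 and Trim26 at chr17:36837134-36859398. All are annotated as protein-coding. Promoters were read from RefSeq (GRCm38.p6) as 250 bases before to 50 bases after each gene start, and 8 members, all but Trim14, were in that table, Trim30a with 2 starts. The ISRE core was searched as GAAANNGAAA on both strands. It was found in 6 of these 8 members, Trim21, Trim26, Trim30a, Trim30d, Trim34a and Trim12c, and in 3.99% of 27025 genes. Neither Trim25 nor Trim56 had these letters in its window. The gamma-activated site, searched as TTCNNNGAA, was found in 0 of 8 members and in 9.55% of genes. A match is a description of letters and no measure of binding. The windows around the matches are given 5′ to 3′ on the strand of the gene, with the matching bases in capitals, and in Trim21 and Trim26 a pair of matches overlap each other.
Trim21 (chr7:102565447-102565476, minus strand): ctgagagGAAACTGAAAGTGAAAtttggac
Trim26 (chr17:36836979-36837008, plus strand): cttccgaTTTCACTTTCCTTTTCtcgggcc
Trim30a, start 1 (chr7:104465210-104465239, minus strand): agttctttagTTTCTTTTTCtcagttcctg
Trim30a, start 2 (chr7:104446104-104446133, minus strand): ttgtttttagTTTCTTTTTCtcagttcctg
Trim30d (chr7:104507871-104507900, minus strand): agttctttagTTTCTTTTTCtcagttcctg
Trim34a (chr7:104244457-104244486, plus strand): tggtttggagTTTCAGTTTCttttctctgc
Trim12c (chr7:104353359-104353388, minus strand): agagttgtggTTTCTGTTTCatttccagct
The matches sat 13 to 28 bases after the start in Trim21, 10 to 19 after it in Trim34a, 20 to 29 before it in Trim12c, 32 to 41 before it in Trim30d and 145 to 160 before it in Trim26. In Trim30a they were 27 to 36 bases before start 1 and 2 to 11 bases after start 2. The windows of Trim30d and of Trim30a at start 1 were equal in 30 of 30 bases, and those of both Trim30a starts in 26 of 30.

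Ribosome footprints on all 9 members rose with IFN-β at 2 h and at 14 h. The 2 h comparison asks which members are already translated more after a short exposure, and the 14 h comparison asks what a long exposure adds. At 2 h edgeR called 9 of 9 members higher, where 5.25% of 12104 genes tested were called higher and 2.01% lower. At 14 h it also called 9 of 9 higher, where 26.2% of 12113 genes were called higher and 26.3% lower. These fits did not use the replicate numbers. With that number as a block, all 9 members were again called at both times. Over all genes the block gave 3538 calls at 2 h, 54.3% of them higher, and 7609 at 14 h, 50.7% of them higher. In CPM every IFN-β library lay above every vehicle library for each member at both times, which held for 7.77% of genes tested at 2 h and for 22.4% at 14 h. The filter on low counts was met by the vehicle libraries alone for 5 members at 2 h and 4 at 14 h. The others passed it through the IFN-β libraries, so the count of members called is a description only. At 14 h the fitted fold changes ranged from 2.54-fold for Trim26 to 1510-fold for Trim30a, whose counts may include those of its copies.

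**Figure D1:**
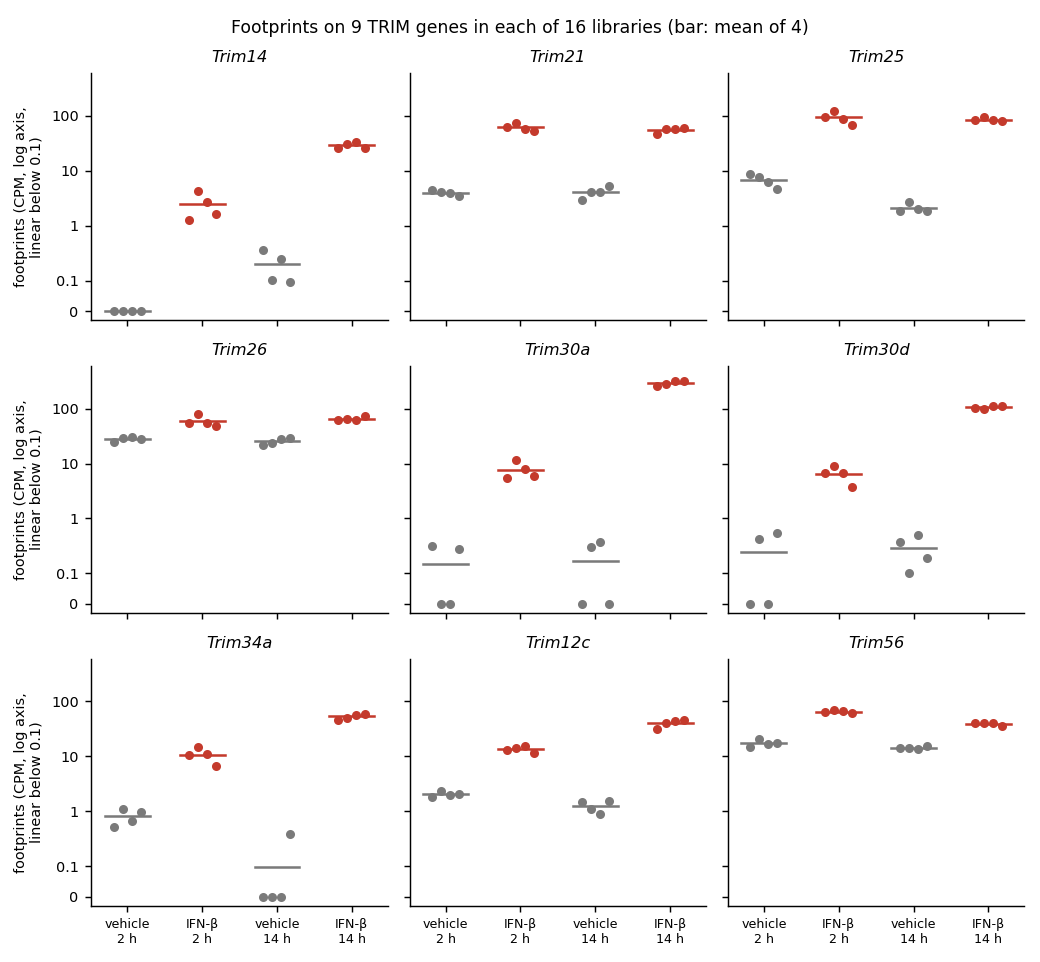
Footprints on each member (CPM on a log axis, linear below 0.1) in the 16 footprint libraries, grey for vehicle and red for IFN-β, with a bar at the mean of 4 cultures. No red point falls to the level of a grey point of its time, and Trim30a reaches 255 to 319 CPM with IFN-β at 14 h.

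Trim25 and Trim14 act near the RNA sensor RIG-I. Trim25 is the ubiquitin ligase best known for activating RIG-I and for aiding the antiviral protein ZAP. At 2 h its footprint counts were 777, 607, 626 and 421 with IFN-β and 82, 55, 48 and 35 with vehicle. At 14 h they were 248, 672, 551 and 749 with IFN-β and 10, 27, 16 and 19 with vehicle. The groups did not overlap at either time, and culture 6 was the lowest of its group in both 2 h groups. Footprints on Trim25 rose 13.6-fold at 2 h (log2 fold change 3.77, SE 0.23, adjusted p = 7.77e-06) and 40.1-fold at 14 h (5.33, SE 0.12, adjusted p = 4.98e-13). The level with IFN-β was 94.1 ± 22.4 CPM (SD, n = 4) at 2 h and 86.0 ± 7.05 at 14 h, while the vehicle level was 6.83 ± 1.67 at 2 h and 2.10 ± 0.429 at 14 h. The larger fold change at 14 h therefore stood beside a lower vehicle level at that time and a similar treated level.

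Trim14 lacks the RING domain and is known as an adaptor at the mitochondrial protein MAVS, downstream of RIG-I. Its counts at 2 h were 10, 21, 19 and 10 with IFN-β and 0 in all 4 vehicle cultures. Against a floor of 3 counts over the vehicle group, footprints on Trim14 were at least 24.2-fold higher (adjusted p = 0.0085, edgeR). The 95% counting interval of the ratio began lower, at 19.1. At 14 h the counts were 79, 217, 219 and 239 with IFN-β and 2, 1, 2 and 1 with vehicle. Trim14 thus had vehicle footprints in the single digits at 14 h and none at 2 h. The ratio of summed counts at 14 h was 165 with a 95% counting interval of 75.3 to 450, and the fitted change was 7.23 on the log2 scale (SE 0.24, adjusted p = 2.78e-11).

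Trim21, Trim26 and Trim56 were translated at a measurable level without IFN-β, as was Trim25. Trim12c had 15 to 17 vehicle footprints per library at 2 h and 7 to 16 at 14 h, some of which may belong to its copies. Trim21 is the cytosolic antibody receptor, which binds IgG on incoming pathogens and marks them for the proteasome. Its counts at 2 h were 510, 363, 415 and 318 with IFN-β and 42, 30, 30 and 26 with vehicle. At 14 h they were 140, 398, 392 and 562 against 16, 41, 33 and 54. Footprints on Trim21 rose 15.3-fold at 2 h (log2 3.93, SE 0.14, adjusted p = 4.36e-07) and 13.4-fold at 14 h (3.74, SE 0.13, adjusted p = 5.69e-11). Its level with IFN-β was 61.8 ± 9.08 CPM at 2 h and 56.0 ± 6.31 at 14 h (SD, n = 4), so the high level seen at 2 h was within the spread of that at 14 h.

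Trim26, a gene of the major histocompatibility region that has been linked to the control of Irf3, had the highest vehicle level of the 9 members. The counts at 2 h were 448, 393, 392 and 291 with IFN-β and 237, 209, 227 and 205 with vehicle. At 14 h Trim26 had 182, 452, 419 and 671 counts with IFN-β and 121, 236, 221 and 305 with vehicle. Raw counts overlap at 14 h because culture 1 was sequenced less deeply, and the CPM did not overlap, at 61.0 to 73.1 with IFN-β and 22.2 to 29.3 with vehicle. The fitted rise was the smallest of the 9 at both times, 2.13-fold at 2 h (log2 1.09, SE 0.15, adjusted p = 0.00211) and 2.54-fold at 14 h (1.35, SE 0.09, adjusted p = 6.16e-08). At 14 h it was close to the 2.71-fold rise of Trim56 (1.44, SE 0.08), and their order was not tested.

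Trim56 is a RING ligase without a SPRY domain that has been tied to the DNA-sensing adaptor STING and to resistance against RNA viruses. At 2 h Trim56 had 514, 344, 480 and 367 counts with IFN-β and 142, 150, 126 and 128 with vehicle. The 14 h counts were 121, 282, 270 and 327 against 78, 142, 110 and 157. In CPM the level went from 17.4 ± 2.53 to 65.3 ± 3.99 at 2 h and from 14.4 ± 0.553 to 39.3 ± 2.46 at 14 h (SD, n = 4). Footprints on Trim56 rose 3.75-fold at 2 h (log2 1.91, SE 0.11, adjusted p = 7.48e-06) and 2.71-fold at 14 h (1.44, SE 0.08, adjusted p = 8.94e-09).

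Trim30a, Trim30d, Trim34a and Trim12c form part of the rodent expansion of TRIM genes on chromosome 7, next to the mouse relatives of the retroviral restriction factor TRIM5. Trim30a is known to dampen NF-κB signalling by acting on Tab2 and Tab3. Its counts at 2 h were 44, 57, 58 and 36 with IFN-β and 3, 0, 0 and 2 with vehicle. At 14 h they reached 760, 1923, 2117 and 2928 with IFN-β and stayed at 0, 3, 3 and 0 with vehicle. Trim30a was thus nearly without footprints in both vehicle groups and had the highest level of the 9 members after 14 h of IFN-β, 292 ± 31.9 CPM (SD, n = 4). The ratio of summed counts was 47.2 at 2 h (95% counting interval 19.9 to 147) and 1690 at 14 h (775 to 4600). In edgeR the changes were 5.47 at 2 h (SE 0.56, adjusted p = 2.76e-04) and 10.56 at 14 h (SE 0.22, adjusted p = 2.01e-13) on the log2 scale.

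Trim30d, a close relative known for the restriction of a tick-borne flavivirus, followed Trim30a. It had 55, 44, 48 and 23 counts with IFN-β and 0, 3, 0 and 4 with vehicle at 2 h. The counts at 14 h were 306, 677, 742 and 1022 with IFN-β and 2, 1, 4 and 2 with vehicle. Groups were far apart at both times, with a ratio of summed counts of 29.4 at 2 h (95% counting interval 13.9 to 74.1) and 400 at 14 h (210 to 875). The changes on the log2 scale were 4.77 (SE 0.62, adjusted p = 0.00126) and 8.55 (SE 0.16, adjusted p = 9.69e-14).

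Trim34a is the mouse counterpart of human TRIM34, which acts together with TRIM5. Its counts at 2 h were 83, 74, 78 and 41 with IFN-β and 5, 8, 5 and 7 with vehicle. At 14 h Trim34a had 136, 353, 384 and 553 counts with IFN-β, and 0, 0, 0 and 4 with vehicle. A single vehicle culture thus held all 4 vehicle footprints of the 14 h group. The ratio of summed counts was 13.3 at 2 h (95% counting interval 8.85 to 21.0) and 467 at 14 h (182 to 1720), and the log2 changes were 3.72 (SE 0.33, adjusted p = 1.02e-04) and 8.65 (SE 0.29, adjusted p = 4.33e-11). Without that culture the vehicle group had no counts, so that Trim34a at 14 h has no fold change that stands without it.

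Trim12c belongs to the mouse genes related to primate TRIM5. At 2 h it had 106, 71, 111 and 71 counts with IFN-β and 17, 17, 15 and 15 with vehicle. At 14 h the counts were 95, 280, 298 and 416 against 8, 11, 7 and 16. Of the 4 clustered members, Trim12c had the highest vehicle level and the smallest rise at both times. Footprints rose 6.70-fold at 2 h (log2 2.74, SE 0.17, adjusted p = 8.34e-06) and 32.8-fold at 14 h (5.04, SE 0.17, adjusted p = 5.25e-11).

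Levels of different members were compared as CPM per kb of coding sequence (CDS), so that a longer CDS does not count for more. With vehicle at 2 h the order was Trim26 (16.7), Trim56 (7.92), Trim25 (3.58), Trim21 (2.90), Trim12c (1.37), Trim34a (0.558), Trim30d (0.161), Trim30a (0.0985) and Trim14 (0). Trim25 and Trim21 overlapped there, as did each neighbour from Trim34a downwards. With IFN-β at 2 h Trim25 (49.3), Trim21 (44.6), Trim26 (35.5) and Trim56 (29.6) overlapped each with the next and stood apart from Trim12c (9.18), Trim34a (7.38), Trim30a (5.21), Trim30d (4.40) and Trim14 (1.77), which again overlapped each with the next. With vehicle at 14 h Trim26 (15.3), Trim56 (6.52) and Trim21 (2.95) came first and did not overlap, and Trim34a (0.0660) came last. Trim25 and Trim12c overlapped there, as did each neighbour from Trim30d downwards, so the last place of Trim34a was not set apart. With IFN-β at 14 h the order was Trim30a (196), Trim30d (70.9), Trim25 (45.1), Trim21 (40.4), Trim26 (39.1), Trim34a (36.8), Trim12c (27.2), Trim14 (21.1) and Trim56 (17.9). Trim30a and Trim30d stood apart from each other and from the rest, Trim25 to Trim34a overlapped each with the next, and Trim56 lay below Trim14 without overlap. Trim30a and Trim30d, near the bottom of the order at 2 h, thus led it at 14 h, while Trim56 went from the fourth place to the last.

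The difference between the responses at 14 h and 2 h was tested over all 16 footprint libraries as an interaction of time and treatment. The response was larger at 14 h for 5 members and smaller for 1, where 15.4% of 12508 genes tested were called larger and 15.5% smaller. Trim30a, Trim30d and Trim34a met the filter on low counts only through the IFN-β libraries, so this count of members is a description only. The change in log2 fold change was 4.93 for Trim34a (SE 0.75, adjusted p = 1.40e-04), 2.28 for Trim12c (SE 0.26, adjusted p = 8.39e-06) and 1.57 for Trim25 (SE 0.29, adjusted p = 8.28e-04). The value of Trim34a rests on vehicle culture 4, which held its only vehicle footprints at 14 h. For Trim30a it was 5.12 (SE 1.41, adjusted p = 0.0122) and for Trim30d 3.77 (SE 1.06, adjusted p = 0.0134), and both had few vehicle footprints at 2 h. Trim30a was no longer called without vehicle culture 2 (4.42, adjusted p = 0.119) or 6 (4.80, adjusted p = 0.0542) at 2 h, nor Trim30d without vehicle culture 3 (3.38, adjusted p = 0.0683) or 6 (3.01, adjusted p = 0.12). Trim56 went the other way, with a response smaller at 14 h (-0.45, SE 0.13, adjusted p = 0.0167). Trim21 (-0.18, SE 0.21, adjusted p = 0.551) and Trim26 (0.27, SE 0.19, adjusted p = 0.302) did not pass the test. Trim26 passed it with the replicate number as a block (0.27, adjusted p = 0.0496) and without IFN-β culture 3 at 2 h (0.43, adjusted p = 0.0236). No value is given for Trim14, whose vehicle group at 2 h had no counts.

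**Figure D2:**
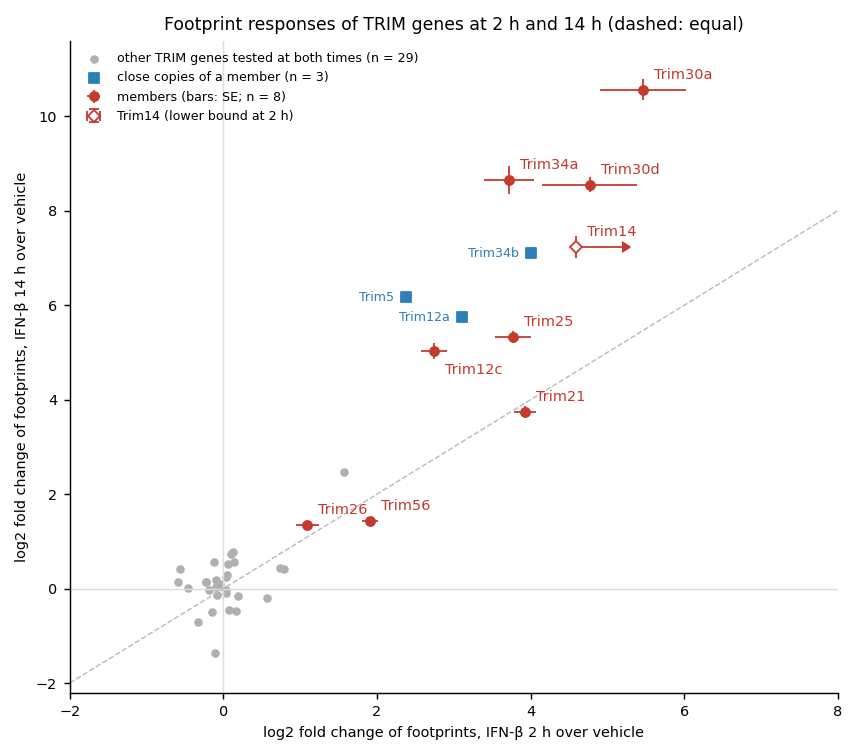
Log2 fold change of footprints at 2 h (x axis) and 14 h (y axis) for the members (red, bars show the SE), 3 close copies of members (blue) and 29 other TRIM genes tested at both times (grey), with a dashed line of equal response. Trim30a, Trim30d and Trim34a lie far above the line, Trim21 and Trim56 lie below it, and the open symbol of Trim14 is a lower bound at 2 h.

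Some members share sequence with near-identical copies, so that footprints of 1 copy may have been counted on another. Of all 28-base stretches of a CDS, a length typical of a footprint, 76.2% in Trim34a also occur in Trim34b. In Trim12c 59.5% occur in another gene, with 48.4% in Trim5 and 23.1% in Trim12a. In Trim30a 27.9% are shared, 22.0% with Trim30d, and in Trim30d 29.2%, 21.6% with Trim30a. The other members were almost free of this, with 0.472% in Trim25, 0.349% in Trim26 and 0 in Trim14, Trim21 and Trim56. The split of counts between Trim34a and Trim34b, or between Trim12c, Trim12a and Trim5, is therefore uncertain, and the reads themselves were not analysed here. Counts of copies were also summed before the fit, Trim30a to Trim30d as 1 sum, Trim12a with Trim12c and Trim34a with Trim34b. Each of these sums was called higher at both times, and the sum of Trim30a to Trim30d had a log2 fold change of 9.53 at 14 h, between the values of Trim30a and Trim30d. The sum of Trim34a and Trim34b had 8.01. Trim5 was not summed with Trim12c.

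**Figure D3:**
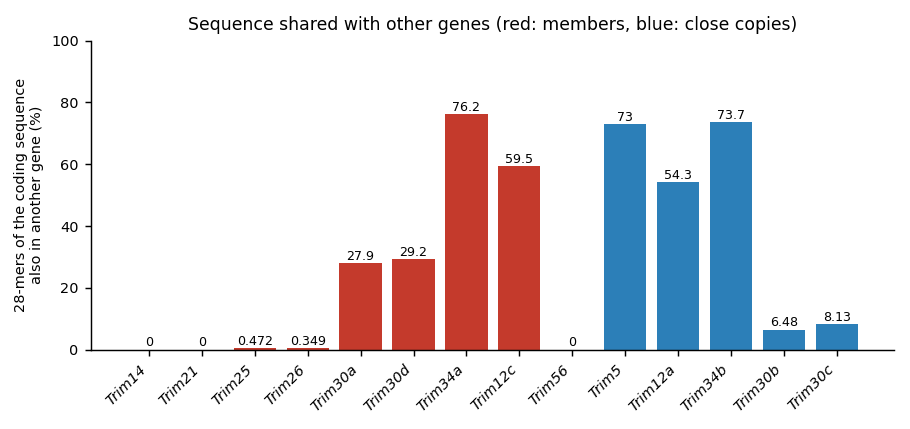
Share of the 28-base stretches of each coding sequence that also occur in any annotated transcript of another gene (per cent), for the 9 members (red) and 5 close copies (blue). Transcripts were searched whole, including untranslated, non-coding and pseudogene sequence. Trim34a and Trim12c are mostly shared with their copies, whereas Trim14, Trim21 and Trim56 share none.

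The copies rose as well. Within 500 kb of the 4 clustered members the list of TRIM genes holds 10, of which Trim6 and Trim30b had too few footprints to be tested. At 2 h Trim34b had 20 to 42 counts in treated cultures against 1 to 5 in vehicle cultures (log2 4.01, adjusted p = 7.49e-04), and at 14 h 70 to 261 against 1 to 2 (7.10, adjusted p = 6.75e-12). Trim5 rose by 2.38 (adjusted p = 8.63e-04) and 6.17 (adjusted p = 1.29e-11), and Trim12a by 3.11 (adjusted p = 7.49e-04) and 5.75 (adjusted p = 6.43e-11) on the log2 scale. At 2 h Trim30c was at 0 with vehicle and at 0 to 2 counts with IFN-β. At 14 h it had 0 against 15 to 60 counts (adjusted p = 3.33e-07, edgeR). Against a floor of 3 vehicle counts Trim30c was at least 65.5-fold higher, and the 95% counting interval of the ratio began lower, at 52.6. Trim30b, which shares 6.48% of its 28-base stretches and Trim30c 8.13%, was not tested and had 3 vehicle counts against 62 with IFN-β at 14 h, a ratio of 27.1 with a 95% counting interval of 8.84 to 135. All genes of the cluster that could be tested rose at each time they were tested, where 5.25% of all genes were called higher at 2 h and 26.2% at 14 h. Except for Trim12c at 2 h, these genes needed the IFN-β libraries to meet the filter on low counts. That all of them rose is therefore a description only. The values of copies are also not independent of those of the members.

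**Figure D4:**
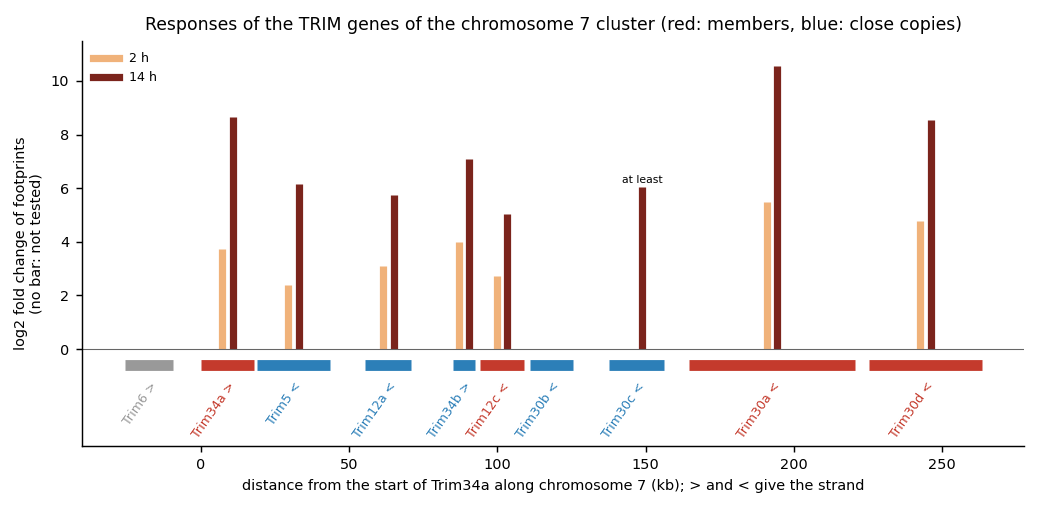
TRIM genes along chromosome 7 (x axis, distance in kb from the start of Trim34a) with their log2 fold change of footprints at 2 h (light bars) and 14 h (dark bars). Each tested gene has a taller bar at 14 h, with the largest, 10.56, at Trim30a, and the bar of Trim30c is a lower bound.

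Of the other 63 TRIM genes on the list, 62 were in the footprint tables. At 2 h 32 were tested, of which 6 rose and 1 fell, where 5.25% of all genes were called higher and 2.01% lower. The median log2 fold change was 0.04, beside -0.02 for all 12104 genes and 3.77 for the 9 members with Trim14 at its lower bound. The copies among them met the filter on low counts only through the IFN-β libraries, as they did at 14 h. The counts of genes that rose are therefore a description only. Beside the copies Trim34b, Trim12a and Trim5, the genes that rose were Pml (1.57, adjusted p = 1.02e-05), the organiser of nuclear bodies, Trim9 (0.79, adjusted p = 0.0317), whose product is a ligase of neurons, and Trim62 (0.74, adjusted p = 0.00275). Trim8 fell by 0.57 (adjusted p = 0.00444) on the log2 scale at 2 h and rose by 0.42 (adjusted p = 0.00621) at 14 h. At 14 h 34 were tested, of which 14 rose and 6 fell, with a median of 0.16 beside 0.00 for all genes and 5.33 for the members, and with 26.2% of all genes called higher and 26.3% lower. Outside the cluster the largest changes were those of Pml (2.46, adjusted p = 3.97e-12), Trim59 (-1.36, adjusted p = 4.42e-08), Trim66 (0.77, adjusted p = 0.0377), Trim13 (0.74, adjusted p = 0.00457), Trim67 (-0.70, adjusted p = 0.0379) and Trim46 (0.57, adjusted p = 0.00818). Apart from Pml, the tested TRIM genes outside the members and their copies thus changed by no more than Trim59 did.

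A list of 13 genes encodes proteins that TRIM members are known to act with, and all 13 were tested. The list was chosen with earlier results of these data known, so its counts are a description only. At 2 h 5 of 13 rose and 0 fell, where 5.25% of all genes rose and 2.01% fell. At 14 h 8 rose and 0 fell, where 26.2% rose and 26.3% fell. Ddx58, which encodes RIG-I, the target of Trim25, rose by 4.20 (adjusted p = 5.19e-06) at 2 h and 5.76 (adjusted p = 9.39e-15) at 14 h on the log2 scale. Zc3hav1, which encodes ZAP, rose by 2.21 (adjusted p = 2.24e-05) and 3.63 (adjusted p = 6.14e-13). Ifi35 rose by 3.69 and 8.41 and its binding partner Nmi by 1.57 and 3.76 (adjusted p at most 3.81e-04). The kinase gene Tbk1 rose by 0.35 at each time (adjusted p = 0.0323 and 3.07e-04). Rnf135, whose product is another ligase of RIG-I, passed the test at 14 h (1.86, adjusted p = 3.69e-08) and not at 2 h (0.82, adjusted p = 0.0675). Tmem173, which encodes STING, had values of 0.66 (adjusted p = 0.583) at 2 h and 0.91 (adjusted p = 1.03e-04) at 14 h, and Ikbkg 0.02 (adjusted p = 0.973) and 0.33 (adjusted p = 0.0356). Mavs, the partner of Trim14 (-0.02 at 14 h, adjusted p = 0.884), the Trim30a targets Tab2 (0.11, adjusted p = 0.265) and Tab3 (-0.02, adjusted p = 0.930), and Irf3 (-0.13, adjusted p = 0.291) did not pass the test. Mb21d1, the gene of the DNA sensor cGAS, did not pass it at 2 h (0.88, adjusted p = 0.0883) or 14 h (0.02, adjusted p = 0.954).

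The genes whose pair of responses lay nearest to the members' medians (3.77 at 2 h and 5.33 at 14 h) were sought among 10282 genes with at least 50 footprints on average. Among the nearest 5 were Slfn8 (3.56 and 5.07, at a distance of 0.33 on the log2 scale), Gbp9 (3.55 and 5.66, at 0.40), Ddx58 (4.20 and 5.76, at 0.61) and Rnf213 (3.11 and 5.09, at 0.70). The likeness covers both comparisons of 4 against 4 cultures.

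Total RNA of the members could not be read as their mRNA level in these tables. The libraries were made with a directional kit, and in pairs of overlapping genes the total RNA counts fell mostly on the gene opposite to the translated one. Among 553 pairs of a coding gene with at least 1000 footprints and a non-coding gene that overlaps it by at least 200 exonic bases on the other strand, the non-coding gene had more total RNA counts in 434 (78.5%). Summed over the pairs, the coding genes had 1267776 total RNA counts and the genes on the other strand 10549510. The 100 genes with the most footprints held 16.8% of all footprints and 0.246% of total RNA counts. Tnc, for example, had 334357 footprints and 3176 total RNA counts, while 8030451A03Rik on its other strand had 998440. Rmrp, a non-coding RNA present in every cell, had 6720 against 1695290 for Ccdc107 on its other strand. The strand setting of the counting is not given in the sources used here, and its part in these values was not tested on reads. The total RNA values and the TE (translational efficiency, footprints relative to total RNA) below are therefore values of the tables only.

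**Figure D5:**
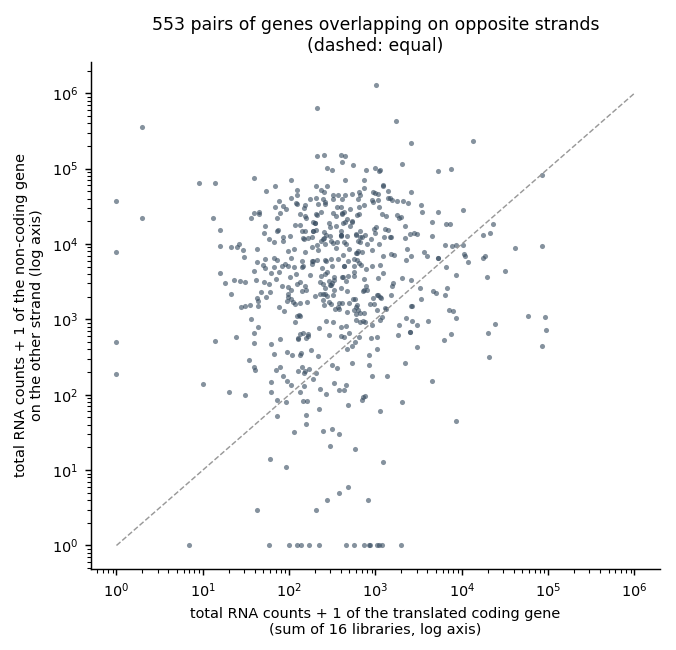
Total RNA counts plus 1, summed over 16 libraries, of translated coding genes (x axis, log) and of the non-coding gene overlapping each on the other strand (y axis, log) in 553 pairs, with a dashed line of equality. In 434 pairs the point lies above the line.

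Most members had hardly any total RNA counts, also where footprints were many. Trim21, Trim30d, Trim12c and Trim56 had 0 to 28 counts in any total RNA library, and Trim25, Trim26 and Trim30a had 1 to 42. At 2 h 5 members were tested and 0 were called by edgeR, where 0.722% of genes were called higher, and 1 of them, Trim34a, had an unadjusted p under 0.05. For Trim34a the 2 h counts were 160 to 1250 in treated and 46 to 216 in vehicle cultures (log2 1.96, SE 0.49, adjusted p = 0.141), and DESeq2 called it (adjusted p = 0.0111). At 14 h 3 members were tested and Trim34a was called, with 8 to 23 counts against 175 to 415 (3.49, SE 0.25, adjusted p = 7.72e-08), where 3.47% of genes were called higher. On its other strand lies the antisense gene Gm47248, which overlaps 609 exonic bases of Trim34a and has no row in the tables.

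Trim14 stood apart with 1463 to 3841 total RNA counts at 2 h and 317 to 1527 at 14 h, against at most 239 footprints in any library. Its total RNA level was 454 ± 130 CPM with vehicle and 466 ± 122 with IFN-β at 2 h, and 393 ± 70.9 against 437 ± 86.8 at 14 h (SD, n = 4), and neither difference passed the test (adjusted p = 0.999 and 0.752). Genes on the other strand of Trim14 are Nans, with 1356 exonic bases of overlap, the non-coding Gm16731 with 163, and the snoRNA gene Gm22247, listed at 0 in every total RNA library. Gm16731 had 8 total RNA counts with vehicle and 161 with IFN-β at 14 h, and Nans 7 and 49. Nans footprints at 14 h were 2653 with vehicle and 1637 with IFN-β, so the total RNA counts of Nans did not follow its footprints. The part of these overlapping genes in the counts of Trim14 was not tested.

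TE, tested as the interaction of library kind and treatment at an adjusted p under 0.1, was called higher at 2 h for Trim25 (log2 3.27, adjusted p = 6.41e-05) and Trim30a (5.04, adjusted p = 0.00371), where 0.581% of genes were called higher. Trim14 passed the threshold too, against vehicle footprints at 0, and is left aside. At 14 h 4 members were called higher, where 4.49% of genes were. They were Trim14 (6.91, adjusted p = 9.85e-12), Trim25 (4.88, adjusted p = 1.42e-07), Trim30a (9.80, adjusted p = 2.64e-08) and Trim34a (4.96, adjusted p = 3.07e-06). Each value has a total RNA term of the kind described above, from 1 to 36 counts per library for Trim25 and from 1 to 23 for Trim30a. Trim30a at both times and Trim34a at 14 h did not meet the filter on low counts with vehicle libraries alone. The number of members called in TE is therefore a description only. Trim21 (3.73, adjusted p = 0.160) and Trim30d (6.24, adjusted p = 0.136) were not called at 14 h by edgeR, and limma-voom and DESeq2 called both (adjusted p at most 0.0104). Their total RNA at 14 h summed to 3 vehicle and 4 IFN-β counts for Trim21, and 1 and 7 for Trim30d. With Trim30a to Trim30d summed, edgeR called the sum at 14 h (8.63, adjusted p = 3.14e-09) and at 2 h (4.31, adjusted p = 0.00747). No TE value is given for Trim14 at 2 h, where the vehicle footprints were at 0, or for Trim12c, whose total RNA counts with vehicle were at 0.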

How the data were processed

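Ribosome footprints and total RNA were measured in 16 cultures, 32 libraries in 4 tables. The values are raw counts per gene as the authors deposited them, whole numbers without normalisation. Per the submitters' processing notes and the study's methods, reads were trimmed with Trim Galore 0.4.4, mapped to the mouse transcriptome (mm10, GRCm38) with Bowtie 0.12.7, freed of duplicates and counted with SummarizeOverlaps in the mode "Union", over the CDS for footprints and over the gene body for total RNA. The strand setting of the counting is not given in the sources used here. Removal of duplicates without molecular identifiers can lower the counts of highly covered genes, and Union counting leaves out reads that fall on several genes, so that total RNA of overlapping genes is affected. Total counts ranged from 2956297 to 10505108 per footprint library and from 1370008 to 7877753 per total RNA library.

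Each column was matched to its sample by its label, and no column was left out. Groups were compared with edgeR 4.0.16 in R 4.3.3 (quasi-likelihood test, two-sided, TMM, Benjamini-Hochberg adjustment over all genes tested). A gene entered a fit if 4 or more of its libraries reached 10 counts. The threshold on the adjusted p was 0.05, or 0.1 for TE, which is the interaction of library kind and treatment. IFN-β was compared with vehicle within each time, and the 2 times by an interaction over 16 footprint libraries. Where a vehicle group had no counts, 3 counts over the whole group served as the floor of a lower bound, which is not a confidence limit. A ratio of summed counts was given a 95% interval (exact, counting error only) where counts were few. Alternatives were no filter, a mean of at least 50 counts, DESeq2 size factors, total counts, DESeq2 1.42.0, limma-voom (limma 3.58.1), the replicate number as a block, each culture as a block for TE, summed copies and each library left out in turn with the same genes tested.

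Footprint libraries with the same number deviated together from their group means (r from 0.47 to 0.87 at 2 h and 0.26 to 0.53 at 14 h, each library correlating best with its own number in 4 of 4), so the numbers pair them. The numbers did not pair the total RNA libraries (r from -0.66 to 0.39 and from -0.09 to 0.53). The test was tried on simulated counts with 200 genes changed by 2 on the log2 scale. These genes were drawn from those with a mean of at least 50 counts, and all genes had the same dispersion. Of the changed genes 100% were recovered in footprints at either time and 99% in the interaction of time and treatment. In TE 80% were recovered at 2 h and 60% at 14 h. False calls made up 3.38% and 4.76% of calls in footprints, 6.60% in the interaction, and 11.6% and 10.4% in TE. Recovery of members with fewer counts was not tested.

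Gene symbols, positions and coding sequences were taken from GENCODE M21, which holds 22282 of the 23035 genes of the footprint tables and 37693 of the 39017 of the total RNA tables. Promoters came from RefSeq (GRCm38.p6). Motifs and shared 28-base stretches were counted in Python 3.11.15 with numpy 2.4.6 and pandas 2.3.3, and figures were drawn with matplotlib 3.10.9. Protein sequences were not analysed here. The members and the lists of other TRIM genes, partner genes and cell markers were chosen with earlier results of these data known. Named genes were all members, the close copies, the called TRIM genes with the largest changes at 14 h (at most 10) together with those called at 2 h, the partner genes and the 5 genes nearest to the members' medians, of which 1 is not reported here.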

Additional observations from a re-analysis of the deposited data

Results flagged for a closer look

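The response of footprints at 14 h differed from that at 2 h for 6 members by the interaction test. The differences in log2 fold change were 1.57 for Trim25, 5.12 for Trim30a, 3.77 for Trim30d, 4.93 for Trim34a, 2.28 for Trim12c and -0.45 for Trim56. Trim30a, Trim30d and Trim34a met the filter on low counts only through the IFN-β libraries, so the number of members is a description only. Time and any difference between the sets of cultures of the 2 times cannot be told apart.

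Single libraries lay far from the other 3 of their group in 6 of 69 groups examined with Dixon's test, where chance gives about 1 in 20 for continuous values. In 3 of the 6 the other libraries were all at 0, so that 1 library with counts had to stand apart. In footprints, Trim25 had 96.5 CPM in IFN-β culture 2 at 14 h, with 81.6 to 83.1 in the others. Trim56 had 35.6 CPM in IFN-β culture 4 at 14 h, with 40.5 to 40.6 in the others. Trim34a had 0.384 CPM, from 4 counts, in vehicle culture 4 at 14 h and 0 in the others. In total RNA, Trim21 had 1.35 CPM, from 4 counts, in IFN-β culture 3 at 14 h and 0 in the others. Trim30d had 1.52 CPM, from 1 count, in vehicle culture 3 at 14 h and 0 in the others. Trim12c had 0.495 CPM in IFN-β culture 6 at 2 h, from 2 counts, with 1.31 to 1.43 in the others. The footprint calls of Trim25 and Trim56 held with each library left out in turn, and without vehicle culture 4 Trim34a had no vehicle counts left at 14 h.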

How the results depend on the processing

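Counted over members and alternatives, footprint values kept their direction and their side of the threshold in 125 of 125 at 2 h and 144 of 144 at 14 h, and the interaction of time and treatment in 186 of 192. Trim14 has no values at 2 h or in the interaction and is not among these. The number of members called fell to 5 at 2 h with a mean of at least 50 counts, since fewer were tested. With 1 library left out it was 9 to 9 at either time, 4 to 7 for the interaction, 0 to 0 and 1 to 1 in total RNA, and 3 to 4 and 4 to 5 in TE. In total RNA at 2 h 3 members were called without a filter, 1 with total counts and 1 with DESeq2. In TE a mean of at least 50 counts left 0 members called at 2 h and 2 at 14 h, since few were tested, and limma-voom called 7 at 14 h; the cause was not tested. Total RNA of Trim14 at 2 h ranged from -0.13 to 0.20 on the log2 scale with 1 library left out. TE at 2 h ranged from -0.30 to 1.16 for Trim21 and from -0.06 to 0.47 for Trim26, which also turned to -0.15 with total counts, and TE of Trim56 at 14 h from -0.63 to 1.37. Leaving out vehicle culture 4 at 14 h leaves Trim34a with no vehicle footprints, and IFN-β culture 3 leaves Trim21 with no treated total RNA counts, so the calls there say nothing on stability.

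With the replicate number as a block, 9 of 9 members were called at either time, 7 in the interaction (Trim26 added), 0 and 1 in total RNA, and 3 and 4 in TE, where the counts at 2 h include Trim14. Over all genes the block raised the calls from 878 to 3538 in footprints at 2 h, with 54.3% of them higher in place of 72.3%, and from 3867 to 6944 in the interaction. With each culture as a block for TE, 4 members were called at either time and 744 genes at 14 h in place of 1136. Calls over all genes in total RNA at 2 h were 93, against 174 without a filter, 169 with DESeq2 and 44 where a mean of 50 counts was asked for, and 79.8% were higher with total counts in place of 90.3%. At 14 h total counts gave 269 in place of 474, with 65.8% higher in place of 55.1%, and a mean of at least 50 counts gave 247. In TE at 2 h calls were 115, against 27 with a mean of at least 50 counts, 51 with total counts, 250 with DESeq2 and 242 with limma-voom, and at 14 h 1136 against 380 with a mean of at least 50 counts. Total counts moved the median of all genes to 0.23 in total RNA and -0.38 in TE at 2 h. Members with few vehicle footprints are limited by depth, since their fold changes rest on 4 to 9 counts over 4 libraries.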
